A study of Mus musculus with 12 samples.

Results

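The genes of the translational arm of mTOR signalling and of the sestrin family were examined in epididymal white adipose tissue (eWAT) of mice fed a normal or a high-fat diet. They were Eif4ebp1, Eif4ebp2 and Eif4ebp3, which encode the 4E binding proteins (4E-BPs), Eif4e, Mtor, Rptor, Rps6kb1, and the sestrins Sesn1, Sesn2 and Sesn3. These 10 genes were picked by symbol among the 23474 genes of an expression table from RNA sequencing, and all 10 were found by their mouse Ensembl identifiers. The family was proposed because Eif4ebp3 was among the genes with the largest difference between the TJ and HFD groups, so that comparison is given as a description, with no p-value for any of the 10 genes. How many of them passed the call threshold used for all genes is counted beside the share of all genes, and supports nothing.

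All mice were male C57BL/6J mice that were assigned to a diet at 5 weeks of age, fed it for 12 weeks and killed at 17 weeks of age, 10 per group. The normal diet (ND) group received no high-fat diet. The other groups received the high-fat diet (HFD) alone, the HFD with 0.25% (w/w) of an ethanol extract of green tea (GT), or the HFD with 3% (w/w) Taeeumjowuitang (TJ), a Korean herbal mixture of water extracts of several plants. The tissue of 3 mice per group was sequenced for HFD and TJ, and the other groups also had 3 libraries each. Nothing in the labels says how the ND and GT libraries relate to animals, so their p-values measure the spread between libraries. Expression was given as FPKM, fragments per kilobase of transcript scaled to the mapped fragments of a library, which allows levels of different genes to be set side by side.

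As background, the kinase mTOR forms mTORC1 with raptor, the product of Rptor, and phosphorylates S6 kinase 1 (Rps6kb1) and the 4E-BPs when amino acids, insulin and energy are plentiful. Unphosphorylated 4E-BPs hold the cap-binding factor eIF4E away from the initiation complex and so restrain translation, while phosphorylated ones release it. Sestrins restrain mTORC1 through the GATOR complexes. Sestrin 2 is a leucine sensor whose gene is known as a target of the stress factor ATF4, while Sesn1 is known as a p53 and FoxO target and Sesn3 as a FoxO target. The measurements here are of RNA, and the phosphorylation state that sets the activity of these proteins was not measured.

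The libraries had an approximate depth of 9770000 to 19500000 fragments, estimated from the commonest low value, taken as 1 fragment, of genes with a single annotated transcript, and no pair of libraries held identical values. ND replicate 1 stood apart from the other 11 libraries. Its summed FPKM over 9 testis germ cell genes was 99169, against 0.685 to 3036 in the others. Over 11 epididymis genes it was 18149, against 0.470 to 1190. Its 8 adipocyte markers summed to 4167 FPKM, against 17557 to 60159 in the others. Tests against ND are therefore given with and without that library. ND replicate 1 was not the only library with germ cell RNA. The germ cell sum was 168 FPKM in ND replicate 2 and 3036 in ND replicate 3. It was 29.8 to 2086 in HFD, highest in HFD replicate 1, 16.0 to 77.8 in GT and 0.685 to 9.39 in TJ. HFD replicate 2 held the epididymis sum of 1190 FPKM. Fits without ND replicate 1 thus still held germ cell RNA, and its part in the differences between groups was not tested. Adipocyte marker sums were 17557 to 19928 FPKM in HFD, 24578 to 28547 in GT and 29871 to 60159 in TJ, and the sums of 8 macrophage markers ran the other way, with 2893 to 4066, 1200 to 2649 and 716 to 2121 FPKM. In ND they were 58.2 to 559 FPKM. No marker of either list was at 0 in any library. Fabp4 made up most of the adipocyte sums, with means of 13384.5 FPKM in HFD, 17482.5 in GT and 32917.9 in TJ. In TJ against GT, 4 of the 8 adipocyte markers were higher and 4 lower, and 0 were called by limma. Their median log2 difference there was 0.04, against -0.03 for all genes. In TJ against HFD, 6 of the 8 adipocyte markers were called higher and 7 of the 8 macrophage markers lower, and in HFD against ND without ND replicate 1 all 8 macrophage markers were called higher, 6 adipocyte markers lower and 1, the leptin gene Lep, higher (1.76). Lep also differed from the other adipocyte markers in TJ against HFD, where its log2 difference was -0.96 (adjusted p = 0.111). The 5 stromal markers summed to 1706 to 1837 FPKM in HFD, 982 to 1331 in GT and 672 to 989 in TJ, and 43.3 to 1040 in ND. Of these, 4 were called lower in TJ against HFD, and 3 were called higher in HFD against ND without ND replicate 1. With all ND libraries, 0 stromal markers were called by limma (3 at an unadjusted p under 0.05), 2 macrophage markers were called higher and 0 adipocyte markers were called in either direction by limma. In bulk tissue, a change in the share of a cell type and a change of RNA per cell cannot be told apart.

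**Figure D1:**
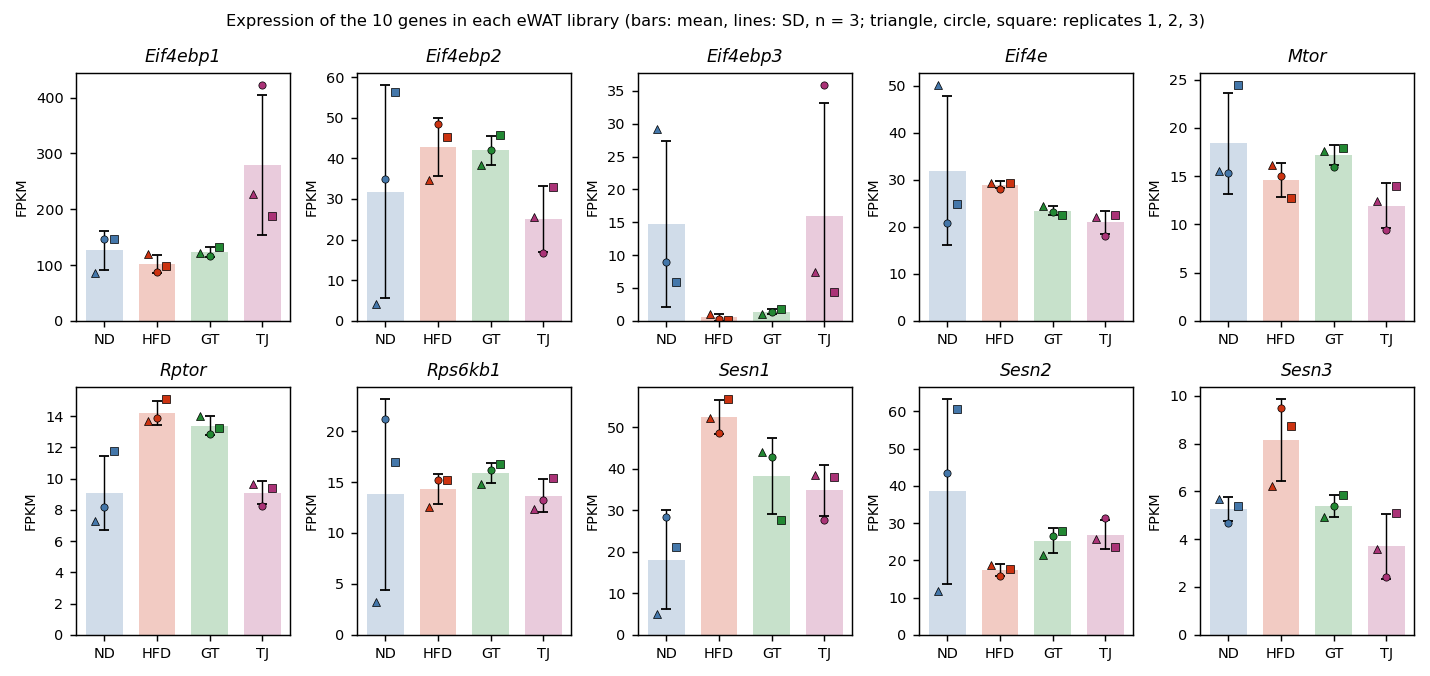
FPKM (y axis, linear and from 0) of the 10 genes in the 12 eWAT libraries by group (x axis). Bars are group means, lines are SD with n = 3 and are not drawn below 0, and triangles, circles and squares are replicates 1, 2 and 3. Eif4ebp3 was lowest in HFD and Sesn1 highest in HFD. ND replicate 1 was far from the other ND libraries for Eif4ebp1, Eif4ebp2, Eif4ebp3, Eif4e, Rps6kb1, Sesn1 and Sesn2.

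Eif4ebp3 encodes the 4E-BP with the lowest FPKM in every library except ND replicate 1 and TJ replicate 2 (GRCm38 chr18:36664060-36665917, plus strand). Its FPKM was 1.11, 0.307 and 0.165 in the HFD libraries and 7.38, 35.8 and 4.46 in the TJ libraries. The TJ libraries were all above the HFD libraries, and TJ replicate 2 was far above the other two. The group means were 0.526 ± 0.508 for HFD and 15.9 ± 17.3 for TJ (SD, n = 3), a ratio of 30.2, and the difference on the log2(FPKM + 1) scale was 3.01 (SE 0.67). That difference was 2.20 without TJ replicate 2 and reached 4.74 with a pseudocount of 0.01 in place of 1, since the HFD values lie below 1 FPKM.

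The low HFD values rest on few reads. With the 744 nt of its only annotated transcript, they correspond to at most about 13.4, 4.25 and 1.74 fragments in the HFD libraries, against 93.3, 432 and 56.3 fragments in the TJ libraries. These fragment numbers are approximate, and no counting interval was derived from them. Eif4ebp3 FPKM was 1.11, 1.32 and 1.80 in GT. All GT libraries were at or above the highest HFD library, from which GT replicate 1 could not be told apart at this depth. It was 29.1, 9.0 and 5.85 in ND, with the highest value in ND replicate 1.

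GT against ND shares no library with the comparison that pointed to Eif4ebp3, and it allows a test. Eif4ebp3 was lower in GT than in each ND library, with a log2 difference of -2.41 (SE 0.59, adjusted p = 0.418, unadjusted p = 0.00607, limma). The exact two-sided permutation test gave p = 0.1, the smallest that 3 against 3 libraries allow. Leaving out ND replicate 1 gave -1.79 (SE 0.27, adjusted p = 0.0668), which did not pass the threshold either. With all libraries, it passed the threshold with array weights (-1.69, adjusted p = 0.0103). With a further change to the fit without ND replicate 1, the adjusted p was 0.0488 (median-of-ratios scaling), 0.113 (the other 11 libraries in the fit) and 0.285 (the replicate number as a block). Against HFD, the ND libraries were higher in each case. The log2 difference of HFD from ND was -3.11 (SE 0.63) with all libraries and -2.49 (SE 0.38) without ND replicate 1, where the ratio of means between ND and HFD was 14.1. These values share their HFD libraries with the choice of the gene, so no p-value is given.

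Reads of neighbouring genes were checked for Eif4ebp3. The gene lies within a longer annotated protein-coding gene on the same strand, AC115631.1, which was not analysed here, and 5146 bases after the end of Ankhd1. Ankhd1, which encodes an ankyrin repeat protein, had 29.8, 32.9 and 27.2 FPKM in HFD and 21.1, 18.3 and 25.6 FPKM in TJ. The part of reads from neighbouring or overlapping genes in the Eif4ebp3 values was not tested. The longest run of bases that Eif4ebp3 shares with the transcripts of the other 4E-BPs was 12 nt.

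Eif4ebp1 encodes the most abundant 4E-BP of this tissue and the best studied mTORC1 substrate among them (chr8:27260329-27276674, plus strand). Its FPKM was 120, 87.9 and 98.9 in HFD, 121, 115 and 133 in GT, and 228, 422 and 188 in TJ. All TJ libraries were above every other library, and the GT libraries overlapped HFD. The means were 102 ± 16.3, 123 ± 9.01 and 279 ± 126 FPKM (SD, n = 3), and the log2 difference of TJ from HFD was 1.36 (SE 0.31). In ND, Eif4ebp1 FPKM was 86.3, 146 and 147, with the low value in ND replicate 1.

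Eif4ebp2, which encodes a 4E-BP known for its role in neurons (chr10:61428491-61452661, minus strand), ran opposite to its paralogs in TJ against HFD. The longest annotated transcript has 5784 nt for Eif4ebp2, 1997 nt for Eif4ebp1 and 744 nt for Eif4ebp3. Summed over all genes, FPKM was 574984 to 725245 in TJ, highest in TJ replicate 2, and 527904 to 552100 in HFD. The part of transcript length in the differences between the paralogs was not tested. Eif4ebp2 FPKM was 34.8, 48.6 and 45.3 in HFD, 38.4, 41.9 and 45.6 in GT, and 25.5, 16.6 and 33.1 in TJ. The TJ libraries were below all HFD and GT libraries. The log2 difference of TJ from HFD was -0.79 (SE 0.26), and that of TJ from GT was -0.77 (SE 0.24, adjusted p = 0.136). In ND the values were 4.15, 35.0 and 56.3 FPKM, so that leaving out ND replicate 1 turned the log2 difference of HFD from ND from 0.98 (SE 0.91) to -0.06 (SE 0.25). Neither value passed the test (adjusted p = 0.581 and 0.881, limma).

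The composition of the 4E-BP RNA pool differed between HFD and TJ, the comparison that chose the family, and is given as a description. Eif4ebp1 made up 64.3% to 77.0% of the summed FPKM of the 3 genes in HFD and 83.3% to 89.0% in TJ. Eif4ebp2 made up 22.3% to 35.5% in HFD and 3.50% to 14.7% in TJ, and Eif4ebp3 0.114% to 0.710% and 1.98% to 7.54%. The ranges of HFD and TJ did not overlap for any of the 3 shares. The shares make up 1 sum, so they are not separate results, and 51.5% of all genes did not overlap in this comparison. In GT, Eif4ebp1 made up 72.7% to 75.4% and Eif4ebp2 23.9% to 26.4%, within the HFD ranges. Eif4ebp3 made up 0.690% to 0.995% in GT, which overlapped HFD. In ND the shares of Eif4ebp1, Eif4ebp2 and Eif4ebp3 were 70.3% to 76.8%, 3.47% to 26.9% and 2.80% to 24.4%.

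The sum of the 3 genes was 156, 137 and 144 FPKM in HFD, 161, 159 and 181 FPKM in GT, and 261, 475 and 225 FPKM in TJ. Eif4e, the gene of their binding partner (chr3:138526179-138559696, plus strand), had 29.3, 28.0 and 29.4 FPKM in HFD, 24.4, 23.1 and 22.6 in GT, and 22.1, 18.1 and 22.5 in TJ. All GT and TJ libraries were below all HFD libraries for Eif4e. The log2 difference was -0.46 (SE 0.13) for TJ against HFD and -0.30 (SE 0.08, adjusted p = 0.0803) for GT against HFD. The ratio of the 4E-BP sum to Eif4e was 5.32, 4.88 and 4.91 in HFD, 6.58, 6.86 and 8.0 in GT, and 11.8, 26.3 and 9.99 in TJ, with no overlap between the 3 groups. It was 2.39, 9.10 and 8.41 in ND, where Eif4e itself was 50.1 FPKM in ND replicate 1 and 20.9 and 24.9 FPKM in the other libraries.

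**Figure D2:**
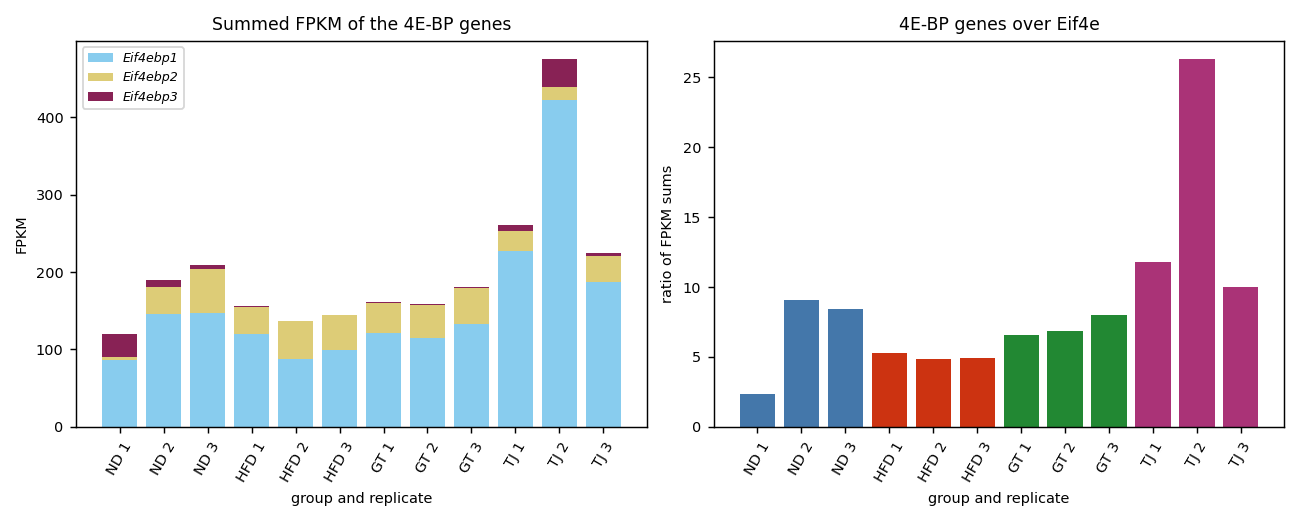
Left, FPKM of Eif4ebp1, Eif4ebp2 and Eif4ebp3 stacked for each library (y axis, linear). Right, the ratio of their sum to the FPKM of Eif4e, coloured by group. The ratio was 4.88 to 5.32 in HFD, 6.58 to 8.0 in GT and 9.99 to 26.3 in TJ, and TJ replicate 2 had the highest sum.

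Mtor encodes the kinase itself (chr4:148448611-148557683, plus strand). Its FPKM was 16.1, 15.0 and 12.7 in HFD, 17.6, 16.0 and 17.9 in GT, 12.4, 9.46 and 14.0 in TJ, and 15.5, 15.3 and 24.5 in ND. TJ overlapped HFD but lay below all GT libraries. The log2 difference of TJ from HFD was -0.28 (SE 0.17), and that of TJ from GT was -0.50 (SE 0.17, adjusted p = 0.149). Angptl7, on the opposite strand within Mtor, was at most 0.790 FPKM in any library, and the library kit named in the labels does not separate strands as far as they say.

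Rptor, the gene of the mTORC1 scaffold that recruits 4E-BPs and S6 kinase (chr11:119602905-119899576, plus strand), had 13.7, 13.9 and 15.1 FPKM in HFD and 14.0, 12.9 and 13.2 FPKM in GT. Its FPKM was 9.63, 8.25 and 9.40 in TJ and 7.30, 8.20 and 11.8 in ND. The TJ and ND libraries were all below the HFD and GT libraries. The log2 difference was -0.59 (SE 0.12) for TJ against HFD, which narrowed to -0.42 with quantile normalization. For HFD against ND it was 0.62 (SE 0.29, adjusted p = 0.494), and 0.49 (SE 0.18, adjusted p = 0.143) without ND replicate 1, so that this difference did not pass the test.

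Rps6kb1, which encodes S6 kinase 1 (chr11:86498871-86544805, minus strand), had similar levels in the groups fed the HFD. Its FPKM was 12.6, 15.2 and 15.2 in HFD, 14.8, 16.2 and 16.8 in GT, and 12.3, 13.3 and 15.4 in TJ. These groups overlapped. The log2 difference was -0.06 (SE 0.14) for TJ against HFD, with values from -0.19 to 0.09 under the alternatives, and 0.15 (SE 0.11, 95% interval -0.11 to 0.40) for GT against HFD. In ND it was 3.27, 21.2 and 16.9 FPKM, and Rnft1, which overlaps its end on the opposite strand by 155 bases, was also low in ND replicate 1 (2.45 FPKM, against 10.2 to 25.5 in the others).

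Sesn2 was lowest and Sesn1 and Sesn3 were highest by mean FPKM in HFD among the groups fed the HFD, and their upstream sequences are shown for that reason. The windows come from RefSeq (GRCm38.p6) and hold the bases before an annotated start site, for Sesn1 the downstream of its 2 listed starts, 5′ to 3′ on the strand of the gene, up to the first base of any exon in the annotation. They lie at chr10:41887189-41887438 (plus strand) for Sesn1, chr4:132510502-132510706 (minus strand) for Sesn2 and chr9:14276051-14276300 (plus strand) for Sesn3. Capitals mark the GC box GGGCGG on either strand, including overlapping matches.
Sesn1: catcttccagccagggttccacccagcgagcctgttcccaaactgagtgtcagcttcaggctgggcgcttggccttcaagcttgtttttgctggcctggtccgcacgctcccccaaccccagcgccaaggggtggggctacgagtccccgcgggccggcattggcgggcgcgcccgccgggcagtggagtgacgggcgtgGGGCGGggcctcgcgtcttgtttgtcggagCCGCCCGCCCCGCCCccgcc
Sesn2: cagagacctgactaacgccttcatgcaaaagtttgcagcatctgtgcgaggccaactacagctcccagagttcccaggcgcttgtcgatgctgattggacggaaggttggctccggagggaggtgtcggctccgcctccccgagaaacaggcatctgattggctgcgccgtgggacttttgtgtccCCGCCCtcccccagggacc
Sesn3: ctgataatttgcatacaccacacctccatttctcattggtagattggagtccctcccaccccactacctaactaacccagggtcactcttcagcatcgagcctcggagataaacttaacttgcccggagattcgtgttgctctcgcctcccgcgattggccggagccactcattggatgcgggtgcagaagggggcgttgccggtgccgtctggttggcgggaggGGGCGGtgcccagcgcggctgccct
The Sesn1 window held 4 matches and the Sesn2 and Sesn3 windows 1 each. At least 1 match was present in 32.7% of all 32851 promoter windows at 250 bases, the length shown for Sesn1 and Sesn3, and in 25.6% at the 205 bases shown for Sesn2. The E-box CACGTG, the forkhead motif GTAAACA and the ATF4 composite motif TGATGNAA, searched on both strands, had no match in these windows. They were present in 6.02%, 3.17% and 3.45% of all windows at 250 bases and in 4.48%, 2.64% and 2.80% at 205 bases. GC content was 71.2%, 61.0% and 59.6%. Windows were given for 8 of the 10 genes, and Eif4ebp1 and Eif4ebp3 were not among them.

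Sesn2 had 18.7, 15.8 and 17.7 FPKM in HFD, 21.5, 26.6 and 27.8 FPKM in GT, and 25.8, 31.4 and 23.6 FPKM in TJ. Its FPKM was 11.7, 43.4 and 60.6 in ND. All GT and TJ libraries were above all HFD libraries, and so were ND replicates 2 and 3, while ND replicate 1 was below. With all libraries, the log2 difference of HFD from ND was -0.83 (SE 0.62, adjusted p = 0.525). Sesn2 was significantly lower in HFD once ND replicate 1 was left out, with a log2 difference of -1.51 (SE 0.18, adjusted p = 0.00689, limma), or a ratio of means of 2.99 between ND and HFD. With the replicate number as a block in addition, it was -1.56 with an adjusted p of 0.0428.

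The GT diet gave a Sesn2 value between HFD and ND. GT against HFD had a log2 difference of 0.51 (SE 0.12, adjusted p = 0.0635), which was not past the threshold, and it was 0.62 (adjusted p = 0.0376) without GT replicate 1. GT against ND had a log2 difference of -0.32 (SE 0.62, adjusted p = 0.779), and of -1.0 (SE 0.20, adjusted p = 0.0774) without ND replicate 1. The latter had an adjusted p of 0.0217 when the other 11 libraries shared the estimate of the spread, and of 0.266 with the replicate block. TJ against HFD had 0.60 (SE 0.15), and TJ against GT had 0.09 (SE 0.17, 95% interval -0.30 to 0.47, adjusted p = 0.751).

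Sesn1 showed the opposite order. Its FPKM was 52.1, 48.6 and 56.8 in HFD, 43.9, 42.9 and 27.6 in GT, 38.6, 27.7 and 38.1 in TJ, and 4.94, 28.3 and 21.1 in ND. HFD libraries were above all others, and GT replicate 3 and TJ replicate 2 were close to the highest ND library. The log2 difference of HFD from ND was 1.77 (SE 0.63, adjusted p = 0.349) with all libraries. Sesn1 was significantly higher in HFD once ND replicate 1 was left out, by 1.07 (SE 0.16, adjusted p = 0.014, limma), a ratio of means of 2.12. That call was lost with the replicate block (adjusted p = 0.116) and with median-of-ratios scaling (adjusted p = 0.0632). The log2 difference was -0.59 (SE 0.17) for TJ against HFD and -0.48 (SE 0.19, adjusted p = 0.147) for GT against HFD.

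Sesn3 had the lowest FPKM of the sestrins in every library except ND replicate 1, where Sesn1 was lower. Its FPKM was 6.23, 9.49 and 8.76 in HFD, 4.93, 5.38 and 5.85 in GT, 3.58, 2.41 and 5.10 in TJ, and 5.68, 4.70 and 5.40 in ND. All libraries of the other groups were below all HFD libraries. The log2 difference was -0.99 (SE 0.25) for TJ against HFD, -0.50 (SE 0.16, adjusted p = 0.10) for GT against HFD, and, for HFD against ND, 0.53 (SE 0.30, adjusted p = 0.494) with all libraries and 0.58 (SE 0.22, adjusted p = 0.142) without ND replicate 1.

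The balance of Sesn1 and Sesn2 RNA thus differed between HFD and ND, as a description with no test. The part of cell composition in it was not tested. The ratio of Sesn1 to Sesn2 was 2.79, 3.08 and 3.20 in HFD, 2.04, 1.62 and 0.993 in GT, 1.5, 0.882 and 1.61 in TJ, and 0.423, 0.652 and 0.348 in ND. HFD was above and ND below all other libraries. This included ND replicate 1, whose sestrin sum of 22.3 FPKM was far below the 61.2 to 87.1 FPKM of the others. The longest run of bases shared between 2 sestrin transcripts was 23 nt, for Sesn2 and Sesn3.

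Calls across all genes needed a fold change of 1.5 or more and an adjusted p under 0.05. In TJ against HFD, 3 of the 10 genes were past that threshold upward and 3 downward, against 7.41% and 11.1% of all 12807 genes tested and 18.5% in either direction. This comparison chose the family, so the count is partly fixed by the choice and nothing is read from it. It was 0 when any HFD library or TJ replicate 1 was left out, where no gene of the table was called either, and 3 without TJ replicate 2. It was also 0 with all 12 libraries in the fit or with no filter, 3 with quantile normalization and 2 with the replicate block. With the 11 libraries other than ND replicate 1 it was again 6, with Eif4ebp2 in the place of Sesn1. The groups did not overlap for 8 of the 10 genes, against 51.5% of all genes, and the median log2 difference of all genes was -0.14.

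For HFD against ND, 0 of the 10 genes were called by limma with all libraries, against 1.77% of the genes tested, and 2 had an unadjusted p under 0.05, against 11.6%. The groups did not overlap for 4 of 10 genes, against 26.4%. Eif4ebp3 is in these counts of 2 and 4 as a description only, since its HFD libraries chose it. When ND replicate 1 was left out, 3 of 10 were past the threshold, against 15.4% of all genes. Sesn1 was higher, where 11% of all genes were, and Sesn2 and Eif4ebp3 were lower, where 4.34% were, though Eif4ebp3 is counted as a description only, since its HFD libraries chose it. With the replicate block in addition, 1 of 10 was past the threshold, namely Sesn2. Without ND replicate 1, the groups did not overlap for 8 of 10 genes, against 47.2% of all genes, again with Eif4ebp3 as a description only.

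The comparisons with GT held no called gene of the family. For GT against HFD, 0 of 9 genes were called by limma, against 3.63% of genes, 4 had an unadjusted p under 0.05, against 29.3%, and 4 did not overlap, against 36.7%. Eif4ebp3 had a mean below 1 FPKM there and was not tested. For TJ against GT, 0 of 10 were called, against 0.148%, 5 had an unadjusted p under 0.05, against 24.6%, and 6 did not overlap, against 34.4%. Eif4ebp3 is in the last 2 of these counts as a description only, since its TJ libraries chose it. For GT against ND, 0 of 10 were called with all libraries, against 0% of genes, 1 had an unadjusted p under 0.05, against 10.6%, and 2 did not overlap, against 29.5%. The same counts without ND replicate 1 were 0, against 0.0451%, then 2, against 23.8%, and 5, against 46.7%.

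**Figure D3:**
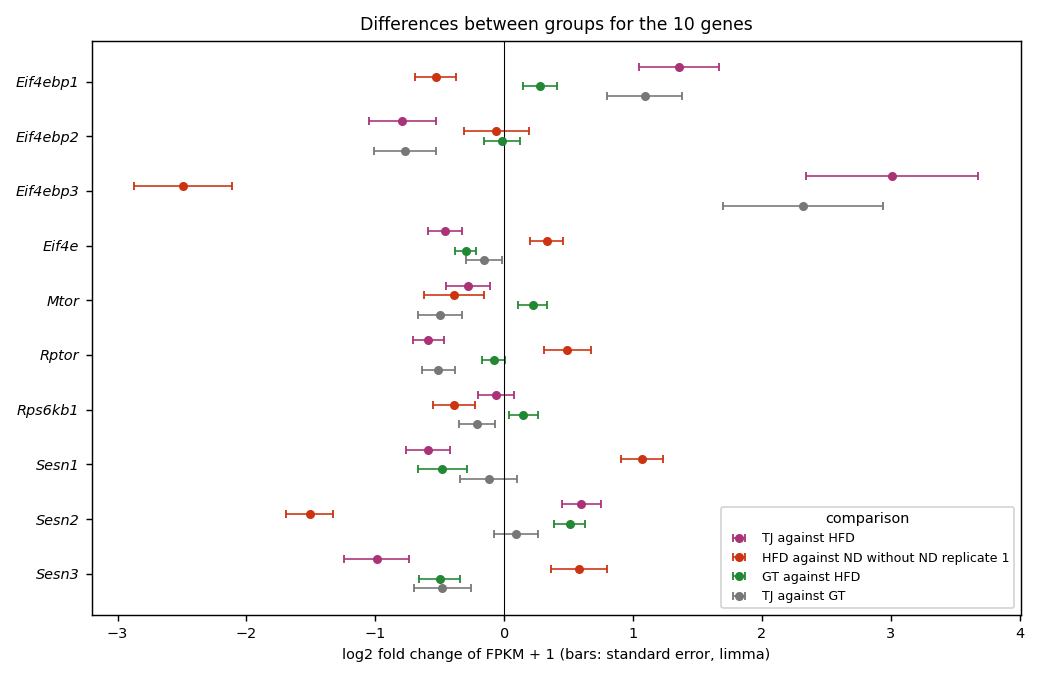
Log2 fold change of FPKM + 1 (x axis, bars are standard errors from limma) of the 10 genes (y axis) in 4 comparisons. Eif4ebp3 is absent for GT against HFD because its mean was below 1 FPKM. Eif4ebp3 was at 3.01 for TJ against HFD and at -2.49 for HFD against ND without ND replicate 1, and comparisons that share HFD libraries are not independent.

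Some of these genes were also set against the marker sums of adipocytes and macrophages. Per 1000 FPKM of the adipocyte marker sum, Eif4ebp3 was 0.0555, 0.0161 and 0.00940 FPKM in HFD, 0.0451, 0.0498 and 0.0629 in GT, 0.20, 0.596 and 0.149 in TJ, and 6.99, 0.274 and 0.261 in ND. TJ libraries remained above HFD libraries on this scale. Eif4ebp1 on the same scale was 4.62 to 6.02 FPKM in HFD and 6.17 to 7.02 in TJ, so that these ranges came close. It was 4.37 to 4.93 in GT and 20.7, 4.43 and 6.57 in ND, so that TJ was not above all ND libraries.

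For Sesn2 the order reversed. Per 1000 FPKM of adipocyte markers it was 0.829 to 1.01 FPKM in HFD and 0.522 to 0.791 in TJ, with 2.80, 1.32 and 2.71 in ND. In GT it was 0.876, 1.01 and 0.973 FPKM, within the HFD range, so that GT was not above HFD on this scale. The value of Sesn2 was thus lower in TJ than in HFD relative to this sum, and still higher in ND. Most of the sum is Fabp4, and Sesn2 was not set against the other adipocyte markers alone. Sesn1 per 1000 FPKM of macrophage markers was 13.4 to 16.8 FPKM in HFD, 16.6 to 23.0 in GT, 18.2 to 38.6 in TJ, and 84.9, 50.7 and 48.7 in ND, the reverse of its order in FPKM. Per 1000 FPKM of adipocyte markers, Sesn1 was instead 2.55 to 3.23 FPKM in HFD, 0.966 to 1.79 in GT, 0.460 to 1.28 in TJ, and 1.19, 0.861 and 0.943 in ND, so that HFD was highest. Sesn3 per 1000 FPKM of macrophage markers was 1.61 to 3.28 FPKM in HFD, 1.86 to 4.87 in GT, 1.69 to 3.36 in TJ, and 97.7, 8.41 and 12.5 in ND, so that HFD and TJ overlapped. Eif4ebp2 per 1000 FPKM of adipocyte markers was 1.74 to 2.58 FPKM in HFD, 1.56 to 1.60 in GT, 0.276 to 1.11 in TJ, and 0.997, 1.06 and 2.52 in ND. The part of cell composition in these differences was not tested.

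**Figure D4:**
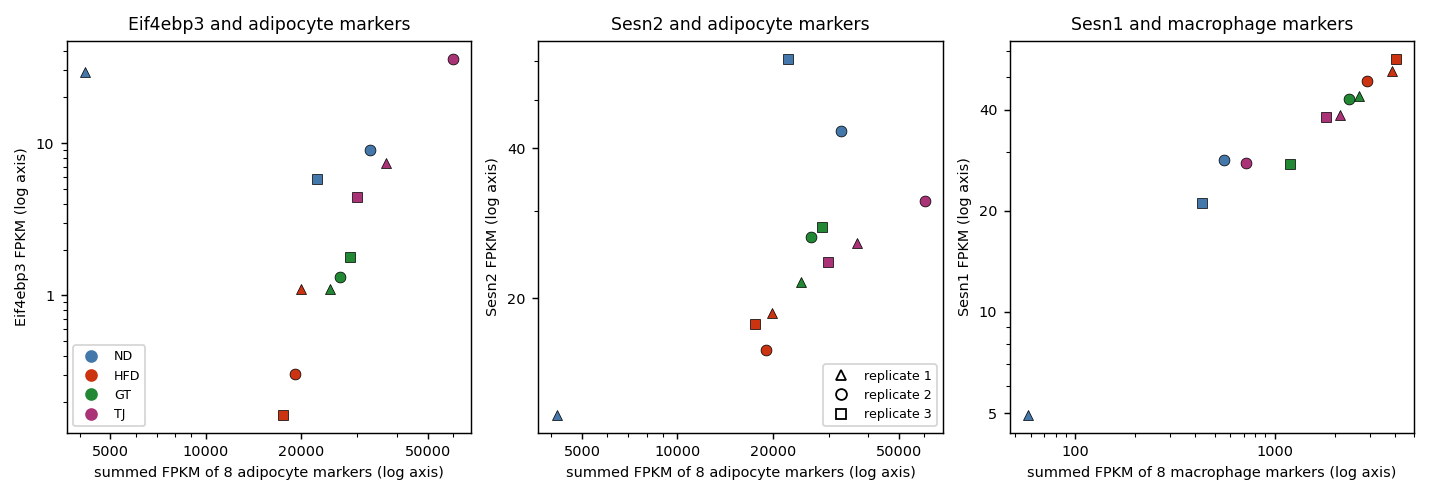
FPKM of Eif4ebp3, Sesn2 and Sesn1 (y axes, log) against the summed FPKM of 8 adipocyte or 8 macrophage markers (x axes, log) in the 12 libraries, coloured by group and with a shape for each replicate. Sesn1 was highest in the HFD libraries, whose macrophage sums were 2893 to 4066 FPKM, and ND replicate 1 stood apart in each panel.

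The genes whose pattern was most like that of Eif4ebp3 over the 12 libraries, by Pearson correlation of log2(FPKM + 1) among 13831 genes, were Trpt1 (r = 0.988, Spearman rho = 0.958), Dusp28 (0.975, 0.916), Gstt2 (0.974, 0.972), Adig (0.974, 0.986) and Iah1 (0.973, 0.979). Adig encodes adipogenin, a small protein of adipocytes. Over the 11 libraries other than ND replicate 1, the 5 most like it were Sdr39u1 (r = 0.991), Gde1 (0.985), Cyp27a1 (0.984), Trpt1 (0.984) and Isca1 (0.982), of which Trpt1 alone was shared.

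For Sesn2, the genes most like it were Fggy (r = 0.977), BC035947 (0.961) and Ddo (0.961) over 12 libraries. Over 11 libraries they were Fggy (0.979), Asns (0.961), which encodes asparagine synthetase and is a known ATF4 target, and Ddo (0.959). For Sesn1 they were Rnf115 (0.997), Srd5a3 (0.996) and Ywhah (0.993) over 12 libraries, and Bcl2a1b (0.991), Rnf115 (0.987) and Cd48 (0.987), the gene of a leukocyte surface protein, over 11. These libraries share their diets and cell composition, and the correlations describe them only.

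The other genes of the pathway were examined in lists made by function. In TJ against HFD, where 7.41% of all genes were called higher and 11.1% lower, none of them was called by limma when any HFD library or TJ replicate 1 was left out. In GT against HFD, 1 of 28 mTORC1 genes, 1 of 18 initiation genes and 2 of 20 ATF4 targets were called, against 3.63% of all genes. These 4 calls (Castor1, Mknk2, Phgdh and Fgf21) were lost in 7 of 16, 9 of 16, 9 of 16 and 10 of 15 alternatives, with adjusted p from 0.00344 to 1.0. Of 28 tested genes of the mTORC1 complex and its regulators, 1 rose in TJ against HFD and 5 fell, and their median log2 difference was -0.18, against -0.14 for all genes. Castor1, an arginine sensor that restrains mTORC1, rose by 1.28 (SE 0.19, adjusted p = 0.0208), from 16.0 ± 0.735 to 41.0 ± 10.6 FPKM (SD, n = 3). The genes that fell were Fnip2 and Fnip1, encoding folliculin partners, by 1.90 (SE 0.51) and 1.25 (SE 0.33), Rragd, encoding a Rag GTPase, by 1.15 (SE 0.25), Tsc1 by 0.81 (SE 0.19), and Depdc5, a GATOR1 subunit, by 0.79 (SE 0.15).

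Castor1 was also higher in GT than in HFD, by 0.90 (SE 0.09, adjusted p = 0.0300), and lower in HFD than in ND without ND replicate 1, by a log2 difference of -0.85 (SE 0.17, adjusted p = 0.0292), against -0.28 (SE 0.53, adjusted p = 0.783) with all libraries. Fnip2 had 26.8 to 34.4 FPKM in HFD, 2.44 to 12.4 in TJ and 1.97 to 4.52 in ND. It was the only gene of this list called in HFD against ND with all libraries, with a log2 difference of 2.93 (SE 0.34, adjusted p = 0.0241, and 0.106 with the replicate block). When ND replicate 1 was left out, 6 of the 30 tested genes of this list rose and 1 fell, where 11% and 4.34% of all genes did. Among those that rose were Akt1s1 (1.07), the gene of an mTORC1 inhibitor, and Lamtor1 (1.03), of the lysosomal Ragulator complex. With the replicate block in addition, 501 genes were called in place of 2098, and calls of the genes of any pathway list were not examined in that fit.

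Among 18 tested translation initiation genes and genes of the S6 kinase branch, Mknk2, a kinase gene whose product phosphorylates eIF4E, rose in TJ against HFD by 0.66 (SE 0.17, adjusted p = 0.0394). Its paralog Mknk1 fell by 0.86 (SE 0.19) and Eif4a1, the gene of the helicase that works with eIF4E, fell by 0.73 (SE 0.13). In HFD against ND without ND replicate 1, which shares the HFD libraries, the log2 differences were 1.18 for Eif4a1, 0.78 for Mknk1 and -0.93 for Mknk2, and with all libraries they were 1.28, 1.22 and -0.01, none of them called by limma (adjusted p = 0.115, 0.355 and 0.993). Mknk2 also rose in GT against HFD, by 0.62 (SE 0.13, adjusted p = 0.0481). Of the 4 mTORC2 subunit genes tested, Prr5 rose in TJ against HFD by 0.85 (SE 0.20). In TJ against HFD, 7.41% of all genes were called higher and 11.1% lower.

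Among the ATF4 targets, the list that Sesn2 belongs to by its known regulation, 4 of 20 tested genes rose and 1 fell in TJ against HFD, where 7.41% and 11.1% of all genes did, with a median of 0.20 against -0.14 for all genes. Those that rose were Phgdh (1.30, SE 0.16), the entry enzyme of serine synthesis, Trib3 (0.90), Nupr1 (0.88) and Atf5 (0.73), and Mthfd2, a mitochondrial folate enzyme, fell by 1.2 (SE 0.30). Phgdh (0.79, SE 0.14) and Fgf21 (0.96, SE 0.20) rose in GT against HFD. In HFD against ND with all libraries, Asns fell by 1.65 (SE 0.26, adjusted p = 0.0475) and Atf3, a stress factor, rose by 5.30 (SE 0.53, adjusted p = 0.0196). With the replicate block these adjusted p-values were 0.201 and 0.0675. When ND replicate 1 was left out, 6 of 20 rose and 2 fell, where 11% and 4.34% of all genes did, with -1.55 for Asns (adjusted p = 0.00386) and 4.73 for Atf3 (adjusted p = 0.000682). Atf3 had 115 to 151 FPKM in HFD and 0.529 to 4.55 FPKM in ND, so that genes of this list moved in both directions.

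In the lists related to Sesn1 and Sesn3, 1 of 12 p53 targets rose and 1 fell in TJ against HFD (Phlda3, 1.03, and Zmat3, -0.72), and 1 of 12 FoxO genes fell (Foxo3, -0.89). Of all genes, 7.41% were called higher and 11.1% lower there, so these counts show nothing particular to the lists. In HFD against ND without ND replicate 1, 11% of all genes were called higher and 4.34% lower. There, 2 p53 targets rose (Cdkn1a, 1.39, and Bax, 1.10) and 0 fell, with a list median of 0.67 against -0.02 for all genes. In the same comparison 4 FoxO genes fell, among them Irs2 (-1.30) and Insr (-1.26), with a median of -0.53, while with all libraries the median was 0.61. Without ND replicate 1, the replicate block left 435 genes called higher and 66 lower, against 1505 and 593 without the block. Calls of the list genes were not examined in that fit. With all libraries, 0 genes of the p53, FoxO and TFEB lists were called by limma in HFD against ND, and 4 of 12, 0 of 12 and 2 of 13 had an unadjusted p under 0.05, against 11.6% of all genes. Of 13 tested genes of TFEB, TFE3 and autophagy, Mitf, a relative of TFEB, fell in TJ against HFD by 1.22 (SE 0.27), and Tfeb (1.43), Mitf (1.04) and Uvrag (0.69) rose in HFD against ND without ND replicate 1. In TJ against GT no gene of these 7 lists was called by limma. At an unadjusted p under 0.05, where 24.6% of all genes were, 4 of 27 mTORC1 genes were higher and 4 lower, 4 of 20 ATF4 targets, 3 of 18 initiation genes and 1 of 13 TFEB genes were higher, 2 of 12 p53 targets were higher and 1 lower, 3 of 12 FoxO genes were lower, and 0 of 4 mTORC2 genes were in either direction.

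**Figure D5:**
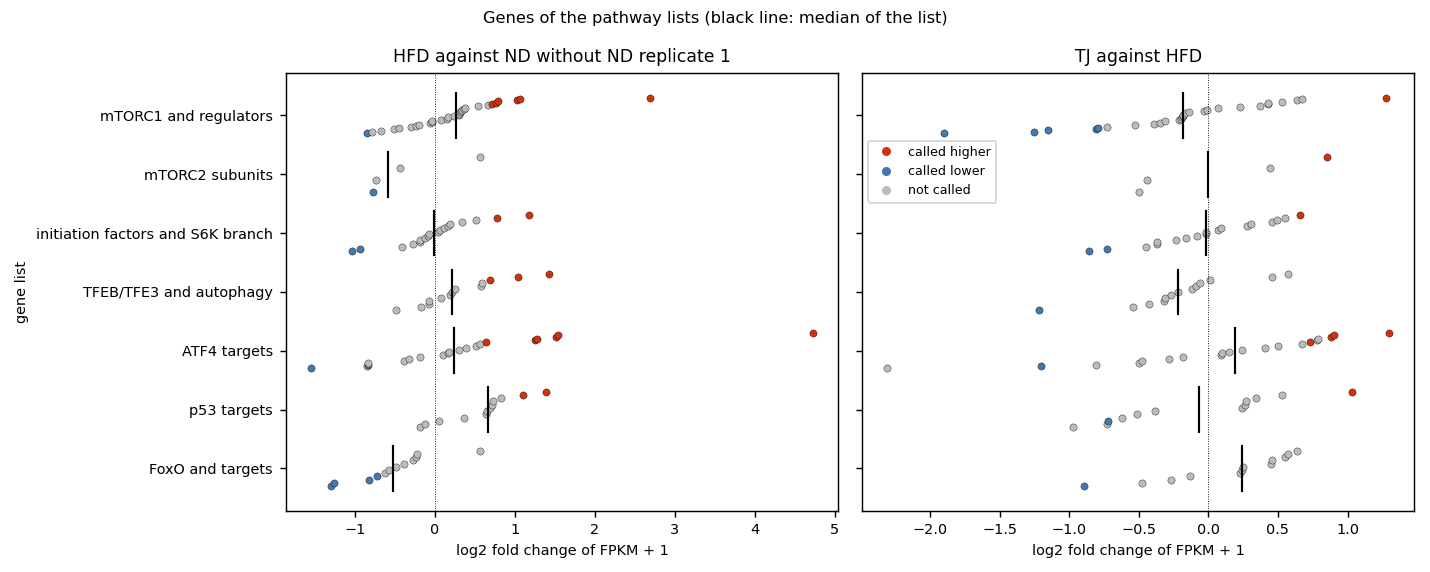
Log2 fold change of FPKM + 1 (x axis) of each tested gene of 7 pathway lists (y axis) for HFD against ND without ND replicate 1 and for TJ against HFD. Red and blue points are genes called higher and lower, grey points are not called, and black lines are list medians. In the mTORC1 list, Fnip2 was the highest point on the left (2.69) and the lowest on the right (-1.90).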

How the data were processed

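RNA sequencing of eWAT gave 12 libraries in 4 groups. The authors mapped filtered reads with STAR (2.3.0e in the methods, 2.4.0 in the submitters' processing notes) and deposited FPKM values, computed by Cufflinks 2.1.1 on Ensembl 72 gene models. Noncoding regions were masked, and reads with several matches and fragment bias were corrected for. A human genome is named in the methods, yet the table carries mouse identifiers. Correction for reads with several matches can move reads between similar genes. The authors' counts and TCC calls were not used here.

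The 6 libraries of each pair of groups were fitted with limma 3.58.1 (R 4.3.3), using log2(FPKM + 1) and eBayes with its trend option. Only genes averaging 1 FPKM or more were tested, with Benjamini-Hochberg adjustment over all of them. Calls needed a fold change of 1.5 or more and an adjusted p under 0.05. A fold change on this scale understates the change of low genes. Exact permutation tests used scipy 1.17.1. FPKM values carry no counting error, so precision rests on the spread between libraries.

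The genes and lists were chosen with earlier results of these data known. All 10 genes were named, as were up to 4 called genes per pathway list and direction, not all of which appear in the text, and Depdc5 was added after its values were seen. The 5 genes most like Eif4ebp3 and the 3 most like some others were those with the highest Pearson r. Symbols and coordinates came from GENCODE mouse release M21 (GRCm38). Of the list genes, Map1lc3b, Slc7a5 and Acta1 were not analysed here.

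Each choice was varied in turn. Pseudocounts were 0.1 or 0.01, and the filter was dropped or raised to 5 FPKM. Values were rescaled by median-of-ratios or quantiles. The fit took all 12 libraries, a block for the replicate number, no trend or array weights, and each library was left out once. Fits without ND replicate 1 that changed a further choice were added after seeing the data. The replicate numbers were taken to pair libraries where the deviations of same-numbered libraries from their group means correlated above 0.1 in every pair. This held for HFD against ND (0.122 to 0.547) and GT against ND (0.118 to 0.219), but no source says what a number shares, and germ cell transcripts were highest in replicate 1 of ND, HFD and GT. On simulated data made like TJ against HFD, with 12572 genes, 84 of 100 genes changed 4-fold and 50 of 100 changed 2-fold were called, with 12 false calls among 146 and 0 calls when nothing was changed.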

Additional observations from a re-analysis of the deposited data

Results flagged for a closer look

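Mtor was the gene whose libraries moved to opposite sides of the HFD mean of 14.6 FPKM in the 2 supplemented groups. All 3 TJ libraries were below it (12.4, 9.46 and 14.0 FPKM) and all 3 GT libraries were above it (17.6, 16.0 and 17.9 FPKM). The direct comparison of TJ with GT gave a log2 difference of -0.50 (SE 0.17), which did not pass the test (adjusted p = 0.149, limma). It was lower in TJ in all 16 alternatives, between -0.62 and -0.36, with adjusted p between 0.0114 and 0.802.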

How the results depend on the processing

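Of 623 values of the 10 genes under the alternatives in comparisons other than TJ against HFD, 577 kept their sign and their side of the threshold, 14 passed it only under the alternative and 32 changed sign. In TJ against HFD, where these genes carry no test, 157 of 160 values moved by less than the spread between libraries, and Rps6kb1 (-0.19 to 0.09) changed sign, but calls were lost. Of 412 values of the called pathway genes, 218 kept the call, 194 lost it and 0 changed sign. FPKM carries no counts and gives no counting error, and Eif4ebp3 in HFD rests on few fragments. Each group has 3 libraries, and leaving out 1 ended all calls in some comparisons. The cause of these changes was not tested.

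For TJ against HFD (2366 genes, 18.5% of those tested, and 6 of the 10 genes called), there were 382 and 0 calls without a filter, 3 of the 10 with quantile normalization, 1 and 0 with all 12 libraries, and 1198 and 2 with the replicate block. With a library left out they were 0 to 3412 and 0 to 7. The calls were 0 genes without HFD replicate 1, 2 or 3 or TJ replicate 1, when 4735, 3837, 3732 and 4233 genes had an unadjusted p under 0.05. The numbers did not pair these libraries (correlations -0.051 to 0.227), nor those of GT against HFD (-0.070 to 0.198) and TJ against GT (-0.213 to 0.371).

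For HFD against ND (255 and 0), the calls were 126 genes at a pseudocount of 0.1, 111 at 0.01, 1131 and 1 with all 12 libraries, 0 genes with the replicate block, where the numbers pair, and 1885 and 3 with array weights. They were 0 to 2098 and 0 to 3 with a library left out: 2098 and 3 without ND replicate 1, 24 and 23 genes without ND replicates 2 and 3, and 0 genes without HFD replicate 1, 2 or 3. Without ND replicate 1 they were 1697 and 2 with median-of-ratios scaling, 501 and 1 with the replicate block, and 2656 and 3 with the other 11 libraries. Where Eif4ebp3 is among these calls, it counts as a description only, since its HFD libraries chose it.

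For GT against HFD (464 and 0), the calls were 5 genes without a filter, 1 with all 12 libraries, 5 with the replicate block, 67 without the trend, 1415 with array weights and 139 with the 11 libraries. They were 4 to 1107 and 0 to 1 with a library left out, 66, 5 and 7 without HFD replicates 1 to 3 and 1107, 4 and 5 without GT replicates 1 to 3. The call among the 10 genes was Sesn2, without GT replicate 1.

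For TJ against GT (18 and 0), the calls were 11 genes at a pseudocount of 0.1, 8 at 0.01, 6 without a filter, 6 with a mean of at least 5 FPKM, 29 with quantile normalization, 4 with all 12 libraries, 1510 and 3 with array weights, and 247 with the 11 libraries. They were 4 to 81 and 0 to 1 with a library left out, and the highest count and the call, Eif4ebp3, came without TJ replicate 2. Calls of Eif4ebp3 in this comparison are a description only, since its TJ libraries chose it. With the replicate block 18 genes were called, 15 of them also called in the main fit.

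For GT against ND (0 and 0, with 1508 genes at an unadjusted p under 0.05), the calls were 131 genes with all 12 libraries, 3209 and 2 (Eif4ebp3 and Sesn2) with array weights, and 0 to 1038 genes with a library left out, 6 without ND replicate 1 and 1038 without ND replicate 2. Without ND replicate 1 they were 401 and 1 with median-of-ratios scaling and 867 and 1 with the other 11 libraries. With all libraries, the replicate block changed no call among the 10 genes in the comparisons with ND.

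The changes of sign were all in values that were not called. For HFD against ND, Eif4e gave 0.04 with quantile normalization and 0.25 with array weights, where Eif4ebp2 gave -0.12 and Rps6kb1 -0.23. With a library left out, Eif4ebp2 gave -0.06 to 1.67, Eif4e -0.28 to 0.33 and Rps6kb1 -0.39 to 0.80, each with its changed sign without ND replicate 1. For GT against HFD, Eif4ebp2 gave 0.11 and Rptor 0.04 with median-of-ratios scaling, 0.07 and 0.05 with quantile normalization, and Eif4ebp2 -0.16 to 0.08 with a library left out (0.08, 0.03 and 0.04 without HFD replicate 2, HFD replicate 3 and GT replicate 1). For TJ against GT, Sesn2 gave -0.02 with array weights and -0.03 to 0.17 with a library left out (-0.02 without GT replicate 1 and -0.03 without TJ replicate 2), and Sesn1 -0.33 to 0.04 (0.04 without TJ replicate 2). For GT against ND, Eif4ebp1 gave -0.03 and Sesn3 -0.00 with median-of-ratios scaling, and Eif4ebp1 -0.29, Eif4ebp2 -0.23 and Rps6kb1 -0.09 with array weights. With a library left out there, Eif4ebp1 gave -0.25 to 0.13, Eif4ebp2 -0.08 to 1.65, Eif4e -0.58 to 0.03, Rps6kb1 -0.24 to 0.95, Mtor -0.18 to 0.14, Sesn2 -1.0 to 0.14 and Sesn3 -0.04 to 0.08. The changed signs came without ND replicate 1 for Eif4ebp1, Eif4ebp2, Eif4e and Rps6kb1, without ND replicate 2 for Sesn3 (-0.04), without ND replicate 3 for Mtor and Sesn2, and without GT replicate 3 for Eif4ebp1 (-0.05) and Sesn3 (-0.02).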
